A study of Mus musculus with 150 samples.

Results

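The cytosolic ribosomal protein genes were taken as the probe sets whose gene symbol is Rpl, Rplp or Rps followed by a number and, in some genes, a closing a, x or l. This rule gave 46 probe sets of 32 genes, 16 of the large subunit and 16 of the small, out of 12422 probe sets and 8251 genes on the array. Total RNA came from wild-type inbred mice, and each of 150 one-colour Affymetrix arrays held 1 tissue of 1 strain. The 24 neural tissues came from the strains 129, DBA and B6 (also written BL6 in the labels), and the 10 body tissues came from 129, AJ, C3H, DBA and B6 with 1 array per strain. No array carried a treatment or an engineered allele, and the labels used here give neither age nor sex; several titles name a pool of animals. The columns labelled DBA perirhinal cortex replicate 2 and 129 hippocampus replicate 1 held identical values and both were left out, which left 148 arrays, 98 neural and 50 body. Nothing in the labels ties every array to an animal of its own: 107 animal or pool codes were read from the titles and 30 of them stood on more than 1 array, so p-values measure the spread between these arrays.

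The ribosome is built from a small subunit, which reads the mRNA, and a large subunit, which joins amino acids, and each subunit holds ribosomal RNA and a set of proteins in nearly equal number of copies. The messages of these proteins are among the most abundant in most cells, and many carry a pyrimidine tract at the 5′ end through which growth signals set their translation together. A few ribosomal proteins have a second gene, and some of these paralogues are known for use in particular tissues, such as Rpl39l in mouse male germ cells.

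Of the 46 probe sets, 36 (28 genes) passed the filter on dim probe sets, a strain-adjusted mean above an intensity of 53.2, the median of all values, in at least 1 tissue. The other 10 were the only probe sets of Rpl35a, Rps14, Rps15 and Rps20, 1 each of Rpl22 and Rps4l, and 4 of Rps4x. By the array's naming of probe sets, 31 members had no qualifier, 9 carried r and 1 carried i (made with fewer or relaxed probe rules), and 3 carried f and 2 carried s (probes shared by a gene family or by several transcripts). Another 38 probe sets list a matching symbol together with other loci; they are no members and are only counted. Ribosomal protein genes have many processed pseudogenes, so a member's signal can include near-identical copies. Of 25 measured genes that define 14 of the tissues, 23 had their highest tissue mean in the labelled tissue, among them Prl and Pomc in pituitary and Prm1 and Tnp1 in testes. The exceptions were Rag1, highest in retina and not in thymus, and Adipoq, slightly higher in brown than in white adipose tissue. The summed intensity of 6 skeletal muscle genes was 5678 in the C3H thymus array, against 180 to 390 in the other thymus arrays. The Gapdh 3′ to 5′ ratio, a sign of RNA quality, ran from 0.748 to 1.41 over the arrays.

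The promoter windows of 4 genes are shown because these genes break from the common level in the results below: Rpl39l and Rps4x in opposite directions in testes, Rpl13a in thymus, and Rpl39 as the partner of Rpl39l. Each runs from 50 bases before to 50 bases into the RefSeq start of the gene on GRCm38.p6, and capitals mark matches of the motifs searched.
Rpl39l: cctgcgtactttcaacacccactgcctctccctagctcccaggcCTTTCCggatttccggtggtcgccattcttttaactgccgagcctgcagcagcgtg
Rps4x: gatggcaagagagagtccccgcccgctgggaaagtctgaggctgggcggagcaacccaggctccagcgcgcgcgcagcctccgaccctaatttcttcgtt
Rpl13a: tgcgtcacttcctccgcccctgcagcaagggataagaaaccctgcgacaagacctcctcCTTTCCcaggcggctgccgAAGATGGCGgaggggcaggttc
Rpl39: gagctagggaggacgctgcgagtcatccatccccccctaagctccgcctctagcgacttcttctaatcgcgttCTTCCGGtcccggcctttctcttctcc
They lie at chr16:10170178-10170277 on the plus strand, chrX:102189342-102189441 on the minus strand, chr7:45128696-45128795 on the minus strand and chrX:37085173-37085272 on the minus strand. RefSeq promoters were matched for 25 of the 32 genes, and 4 motifs were searched. CTTTCC, a pyrimidine-rich run, was sought on the sense strand from 15 bases before to 25 after the start and stood in 5 of 25 member promoters (20%), against 506 of 27000 others (1.87%). CCGGAAG, the core bound by ETS factors, was sought on both strands of the 300 bases and stood in 10 of 25 (40%), against 9.09% of the others. AAGATGGCG, the core bound by YY1, was sought likewise and stood in 3 of 25 (12%), against 1.49%. TATAAA, sought on the sense strand from 50 to 15 bases before the start, stood in 0 of 25 (0%), against 692 of 27000 others (2.56%). The first motif stands in the windows of Rpl39l and Rpl13a, the third in that of Rpl13a and the second, reversed, in that of Rpl39; no motif stands in the window of Rps4x.

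The common level summarises the 36 members per array: the median over them of the log2 intensity minus the member's own mean over tissues. It was highest in pituitary, 0.60 ± 0.07 (SD, n = 4), then in spleen, 0.52 ± 0.09 (n = 5), and thymus, 0.50 ± 0.19 (n = 5). The lowest means were those of motor cortex, -0.24 ± 0.07, and cerebellum, -0.28 ± 0.10 (n = 4 each). The arrays of pituitary (0.50 to 0.66), spleen (0.40 to 0.65) and thymus (0.16 to 0.62) overlapped, so their order is within the spread, and likewise motor cortex (-0.34 to -0.19) overlapped cerebellum (-0.37 to -0.19). Muscle (0.34) and heart (0.25) followed, 9 tissues had means from 0 to 0.16, and the other 18 had means from -0.05 to -0.20. In folds the span was small: 1.51 times the 34-tissue mean in pituitary and 0.825 times in cerebellum. The level is a description with no test, and in these bulk tissues fewer cells of a type and less RNA per cell cannot be told apart.

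**Figure D1:**
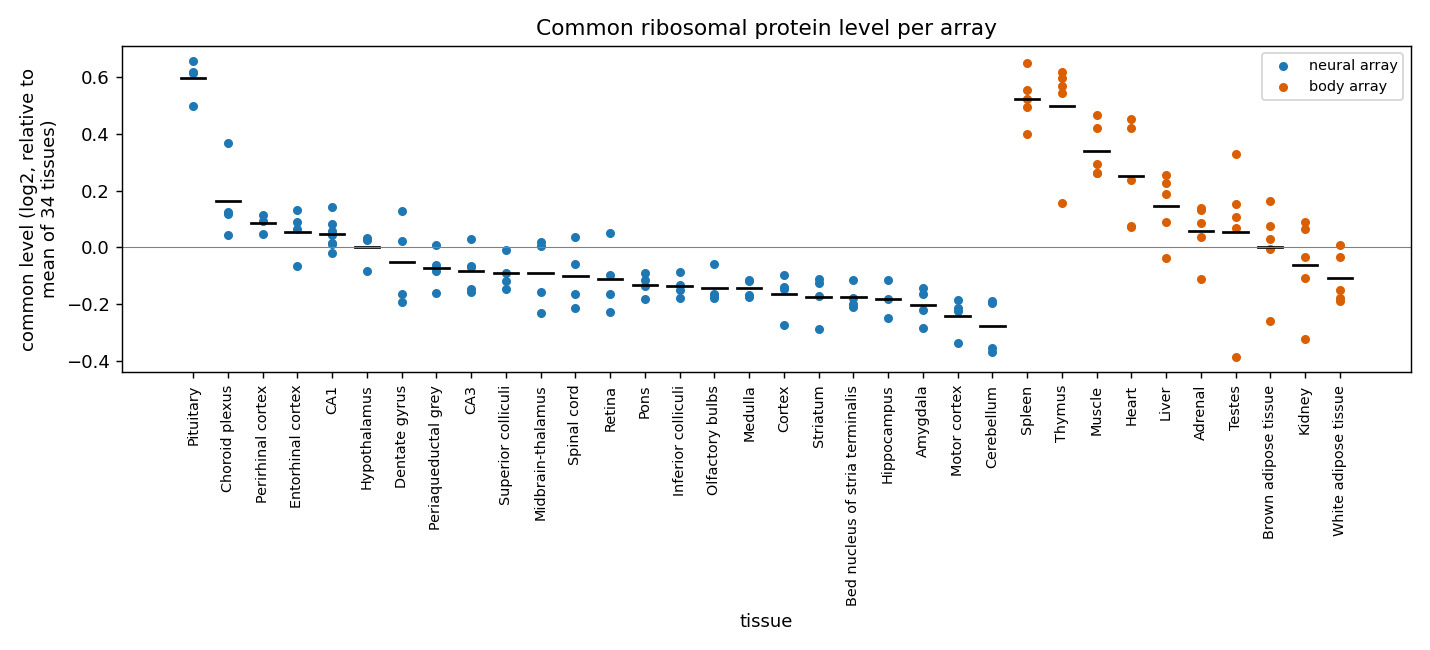
Common ribosomal protein level (log2, relative to the mean of 34 tissues) of each of 148 arrays by tissue, neural tissues left and body tissues right; points are arrays and bars are tissue means. Pituitary (mean 0.60), spleen (0.52) and thymus (0.50) stand highest and cerebellum (-0.28) lowest.

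Members differed in how closely they followed that level. The tissue means of Rps24 (97696_r_at), a small-subunit protein, spanned only 0.87 on the log2 scale, and those of Rpl37a, Rps28 (98085_f_at), Rps27 and Rpl8 spanned 1.06, 1.09, 1.13 and 1.24. The widest spans were those of Rpl39l (7.61), Rps4l (5.49), Rps13 (3.75), Rpl38 (99627_r_at, 3.67) and Rps4x (3.63). The median span was 2.12 over the members, beside 3.14 over all probe sets that passed the filter. Across the 34 tissues, Rps18 and Rpl8 correlated most with the common level to which they contribute (r = 0.89 and 0.87), and Rps24 (93121_at) least (r = -0.38). That probe set is dim (median intensity 39.55), and the brighter Rps24 probe set, 97696_r_at (median 4571), had r = 0.77. Outside the rule, the genes whose 34 tissue means were most like the common level were Socs3 (r = 0.84), Gm15772 (0.82), S1pr4 (0.82), Phf5a (0.80) and Gtse1 (0.80) of 7212 genes; the tissues share arrays and scaling, and these values are a description.

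**Figure D2:**
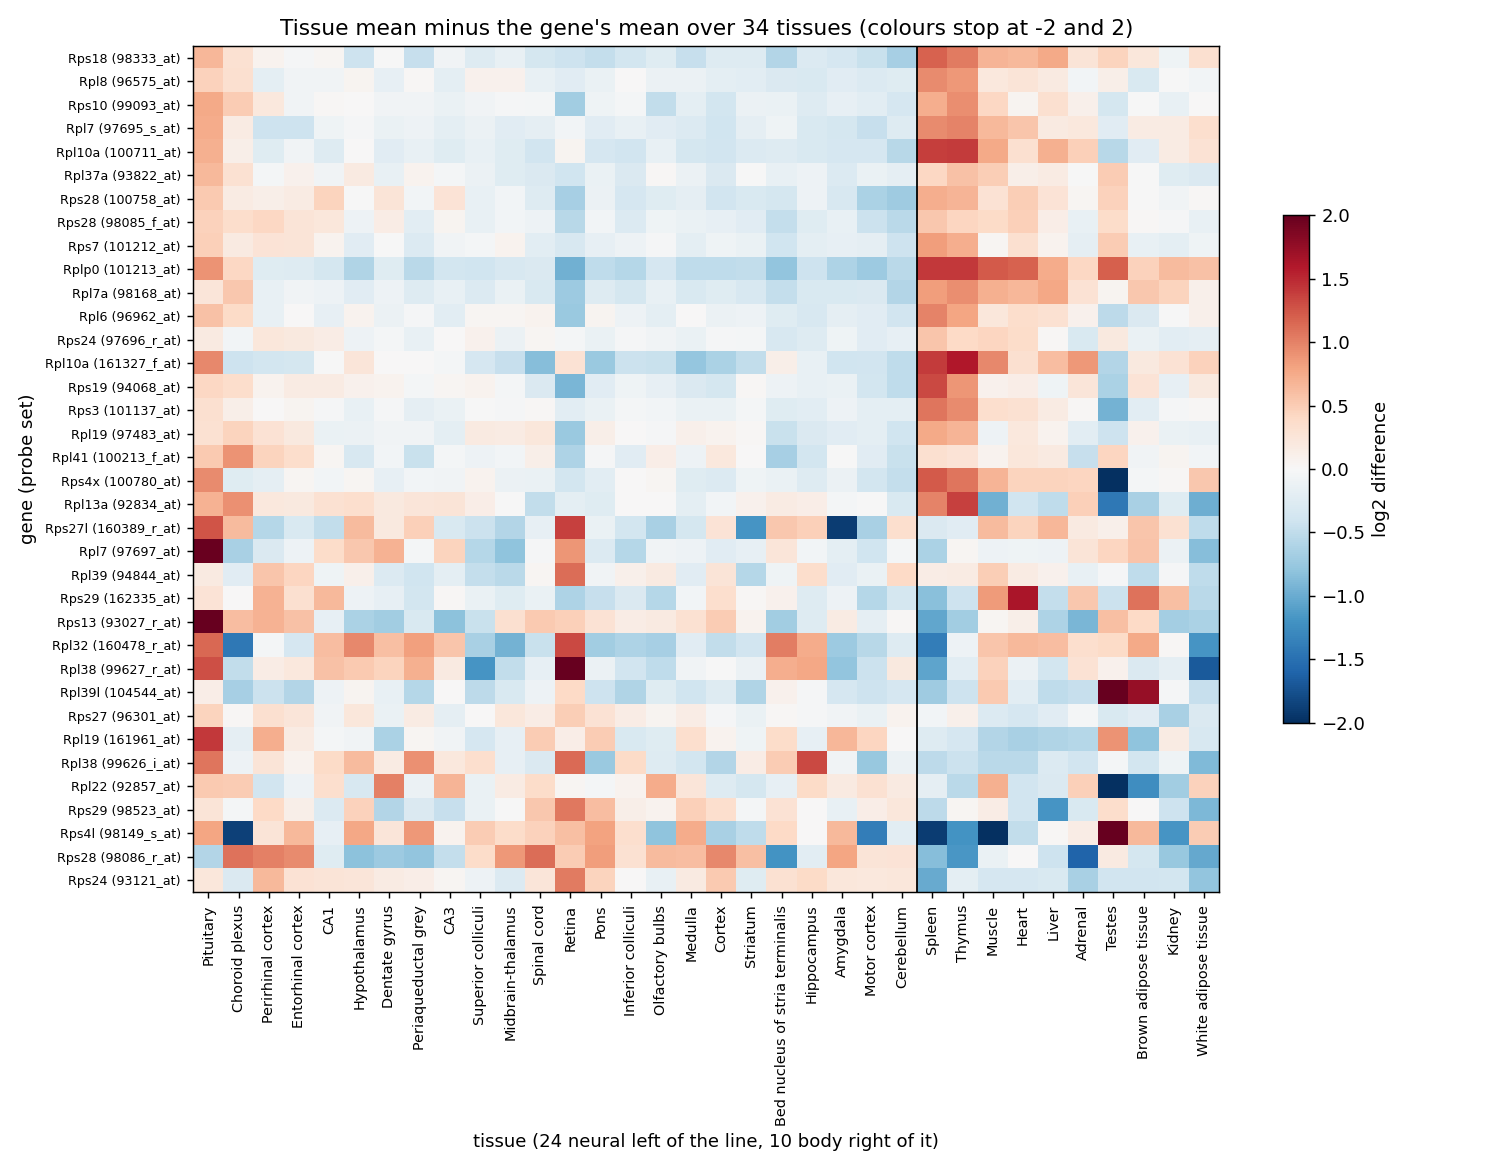
Tissue mean minus the gene's mean over 34 tissues (log2, colour) for the 36 member probe sets that passed the filter, in order of their correlation with the common level. Most rows of the upper part share high values in pituitary, spleen and thymus, and Rpl39l, Rps4l, Rps4x and Rpl22 stand out in testes.

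In body tissue, limma with strain as a term set every tissue against the other 9 as a mean, and a member was called at an adjusted p of 0.05 (Benjamini-Hochberg over all 8921 probe sets tested) and a log2 difference of 1. Of the 31 members tested, 14 were called in at least 1 body tissue, beside 81.6% of all probe sets. Testes had 9 of them (45.1% of all probe sets called), 3 higher and 6 lower, with a member median of -0.09 and a median over all of -0.21. Every other body tissue is set against a mean that includes testes. A large testes difference thus shifts the other comparisons of that member in the opposite direction.

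Rpl39l, the paralogue of the large-subunit protein Rpl39, had intensities of 1852, 2262, 1869, 1974 and 2218 in the testes of 129, AJ, B6, C3H and DBA, against -2.34 to 83.7 (median 10.3) on the 45 arrays of other body tissues. All 5 testes arrays lay above every other body array, 23 of which were at or below the floor of 10.4. The log2 difference was 6.95 ± 0.24 (SE, limma adjusted p = 4.24e-27). Rpl39l passed the filter in body tissue through 2 tissues, testes and brown adipose tissue, and the difference depends on the floor: it was 5.85 with a floor at the 40th percentile and 7.39 at the 10th. Rpl39 itself, on the X chromosome, had 15.8 to 62.8 in testes and 10.8 to 80.6 (median 27.2) in the other body tissues, and its probe set did not pass the filter among body tissues.

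Rps4l, the autosomal relative of the small-subunit protein Rps4x, had 957, 841, 836, 907 and 795 in the same testes arrays, against -1.27 to 232 (median 72.3) in the other body tissues. The groups did not overlap, and the log2 difference was 3.65 ± 0.22 (adjusted p = 2.95e-19). This holds for the probe set 98149_s_at; the dimmer Rps4l probe set 98148_at read 6.79 to 34.3 in testes and up to 41.4 elsewhere in the body. Rps4x, whose gene lies on the X chromosome, read the other way with 432, 420, 570, 393 and 247 in testes, against 1783 to 5397 (median 2933) in the other body tissues. Rps4x fell by 2.95 on the log2 scale (SE 0.10, adjusted p = 8.42e-28), with no overlap; its 4 other probe sets were too dim to pass the filter.

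Rpl22, an RNA-binding large-subunit protein known for its part in mouse T-cell development, had 29.2, 21.4, 18.9, 17.0 and 19.5 in testes, against 29.6 to 239 (median 82.9) elsewhere, a difference of -2.01 ± 0.17 (adjusted p = 8.11e-14). The groups did not overlap. Rps3, which also acts in DNA repair, had 1242, 1159, 1189, 1090 and 1070 in testes, against 1584 to 5148 (median 2501) in the other body tissues, a log2 difference of -1.23 ± 0.09 with no overlap. Rpl13a, a large-subunit protein that in human cells also leaves the ribosome to repress inflammatory messages, had 86.0, 63.0, 87.6, 78.5 and 70.6 in testes, against 77.3 to 642 (median 161), a difference of -1.32 ± 0.12 with 3 testes arrays inside the range of the others. Both probe sets of Rpl10a were lower, by -1.33 ± 0.10 and -1.14 ± 0.08, and the adjusted p of these 4 values ran from 7.2e-17 to 1.23e-13. Rps13 was higher by 1.05 ± 0.23 (adjusted p = 9.62e-05). Rps27 and its paralogue Rps27l did not pass in testes, with -0.08 ± 0.09 and -0.09 ± 0.25.

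**Figure D3:**
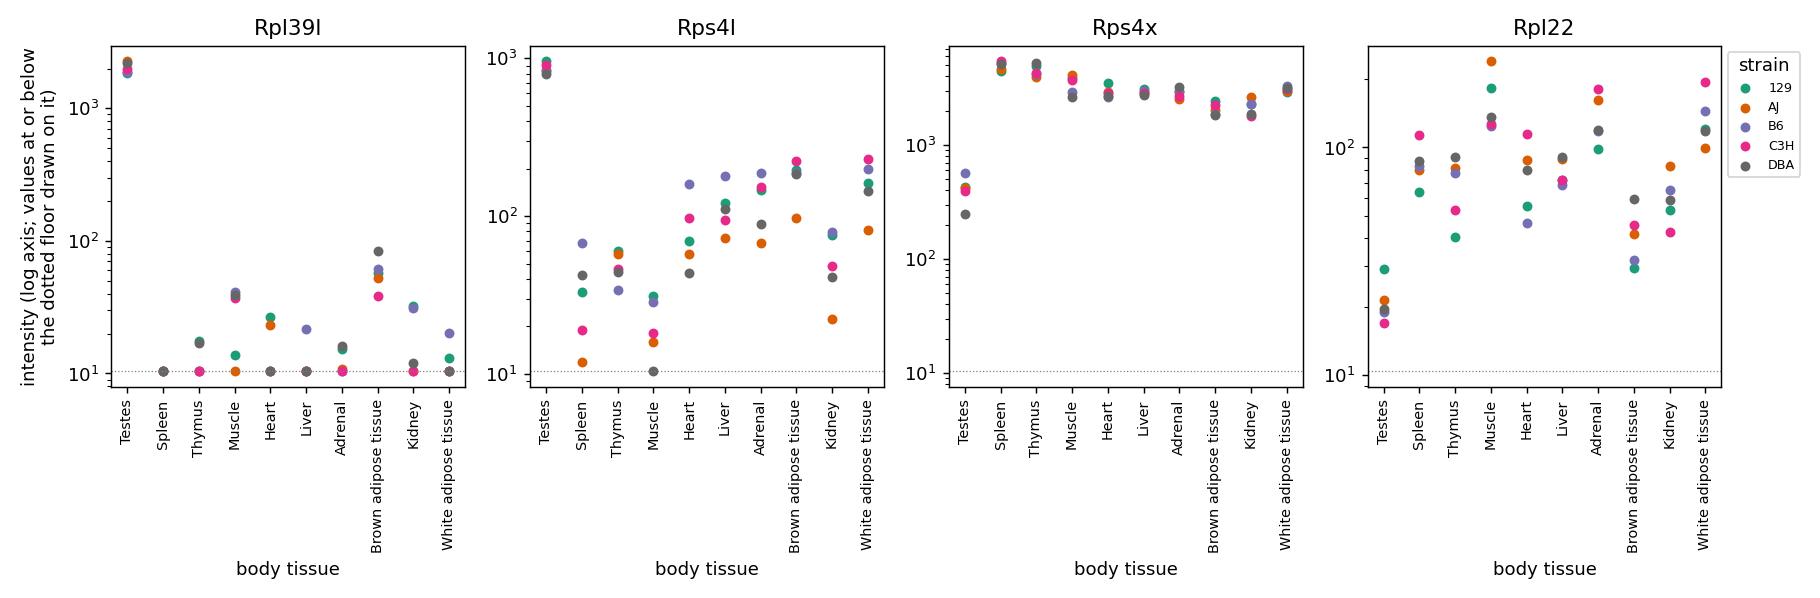
Intensity (log axis, values at or below the floor drawn on it) of Rpl39l, Rps4l, Rps4x and Rpl22 on the 50 body arrays, testes first, coloured by strain. Rpl39l and Rps4l lie above, and Rps4x and Rpl22 below, the other tissues in all 5 testes arrays.

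In thymus 5 members were called (31.8% of all probe sets), and in spleen 8 (36.1%). Rpl13a had 488, 451, 604, 642 and 477 in the thymus of 129, AJ, B6, C3H and DBA, against 63.0 to 453 (median 149) in the other body tissues, and rose by 1.77 ± 0.12 (adjusted p = 3.59e-17). The AJ thymus array lay within the range of the others. Rpl10a rose in thymus with both probe sets, by 1.03 ± 0.08 and 1.10 ± 0.10 (adjusted p = 2.16e-14 and 3.86e-13). The first of these did not reach 1 without the DBA thymus array. Without the C3H thymus array, which held the skeletal muscle signal, the differences were 1.71 for Rpl13a and 1.06 and 1.05 for Rpl10a. Both genes were lower in testes, which is part of the mean set against thymus and adds to these rises. Fits without testes were not made.

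Rps19, the small-subunit protein mutated in Diamond-Blackfan anaemia in humans, had 3898, 3512, 4316, 4096 and 4440 in spleen, against 891 to 3408 (median 1760) elsewhere, with no overlap, and rose by 1.22 ± 0.08 (adjusted p = 4.72e-17). Rpl13a rose in spleen by 1.36 ± 0.12, Rps4x by 1.09 ± 0.10 and Rpl10a (100711_at) by 1.01 ± 0.08. The last was under 1 in 7 fits that left out 1 array each (for example AJ spleen). The mean set against spleen includes testes, where each of these genes was lower, so testes adds to each rise. In the opposite direction, Rpl32 (160478_r_at) had 37.8, 30.4, 24.4, 35.2 and 29.3 in spleen, against 25.4 to 369 (median 95.5) elsewhere, a difference of -1.60 ± 0.25 (adjusted p = 4.06e-07). Rps4l was lower in muscle by -2.45 ± 0.22 (adjusted p = 3.4e-13), where it read 31.1, 15.8, 28.5, 18.2 and -1.27, and in spleen by -1.78 ± 0.22 (adjusted p = 1.25e-09), where it read 33.2, 11.8, 67.8, 19.0 and 42.5. In thymus its difference of -1.01 ± 0.22 was past the threshold but under 1 in 18 fits that left out 1 array each, among them that without C3H thymus (-0.97), and all of these differences are taken against means that include testes. Rps29 (162335_at) read 1.74 to 9.61 in spleen, at or below the floor on all 5 arrays, against 4.90 to 90.7 elsewhere, so spleen gives only a bound and the called difference of -1.15 rests on the floor.

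The median over the 31 members was 0.48 in spleen (all probe sets -0.17) and 0.45 in thymus (all -0.06). Marker genes of dividing cells, lymphocytes and red blood cells were also measured. The summed intensity of 9 genes of dividing cells was 1963 to 8153 in spleen and 6709 to 9760 in thymus, against 408 to 1300 in kidney, with 1963 in B6 spleen and 5135 or more in the other 4 spleen arrays. B6 heart had 1836, close to B6 spleen, beside 429 to 573 in the other heart arrays. B6 liver (1099) and B6 muscle (1126) also lay above the other strains of their tissue. The same sum was 4295 to 4832 in testes, where the median over members was -0.09, and 540 to 701 in pituitary, where the common level was highest. The summed intensity of 3 B-cell genes was 5981 to 7696 in spleen, and that of 4 T-cell genes 5700 to 7099 in thymus, against 88.7 to 161 and -2.9 to 41.6 in kidney. The summed intensity of 3 red blood cell genes was 12029.7 to 18349.9 in spleen and 1199.8 to 4711 in thymus, against 2354 to 6195 in kidney, and heart had 12597 to 21841. The part of these cells in the result was not tested.

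Elsewhere in the body the calls were few: 3 of 31 members in white adipose tissue (20.2% of all probe sets), 2 in brown adipose tissue (21.2%), 2 in adrenal (14%), 2 in muscle (24.5%), 1 in heart (20.1%), 1 in liver (33.4%) and 0 in kidney (21.9%). In kidney limma gave 20 of 31 an unadjusted p under 0.05, beside 22 of 31 each in adrenal, brown adipose and white adipose tissue. At that p the share of all probe sets was not counted, here or in the strain comparisons below. Rpl22 had 182, 239, 124, 126 and 137 in muscle, against 17.0 to 195 (median 77.5) elsewhere, and rose by 1.22 ± 0.17 (adjusted p = 7.85e-08). The groups overlapped, and white adipose tissue reached 195 and adrenal 181. The mean set against muscle includes testes, where Rpl22 was lower, so testes adds to this rise. The call in heart was that of Rps29 by probe set 162335_at, which had 90.7, 62.5, 39.6, 47.5 and 58.9 there, against 1.74 to 58.1 (median 22.1) elsewhere. It passed the filter through heart alone, so it had to read high there, and its difference of 1.59 is given as a description; the other probe set, 98523_at, gave -0.07 (adjusted p = 0.765). Rpl32 was lower in white adipose tissue by -1.38 ± 0.25, and Rpl38 (99627_r_at) by -1.52 ± 0.29, the second not called with a floor at the 40th percentile. Rps4l was higher in brown adipose tissue by 1.05 ± 0.22 and Rps28 (98086_r_at) lower in adrenal by -1.11 ± 0.23; the first was not called without the C3H or the DBA brown adipose array, and the second not without the 129 adrenal array. Rpl39l was called in 6 further body tissues, higher by 1.22 in brown adipose tissue and lower in 5, with all 5 spleen arrays at the floor. None of the 6 was called when the floor was raised to the 40th percentile. The means set against these tissues include testes, where the Rpl39l mean was 10.99 in log2 beside a floor of 3.38. Testes therefore pushes each of these differences down, and the lower calls are no sign of loss apart from the testes peak. Fits without testes were not made.

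Among neural tissues, each compared with the mean of the other 23 over 8501 probe sets, 13 of 34 members were called in at least 1 tissue, beside 63.3% of all probe sets. Of these, 3 were called only in the 1 tissue through which they passed the filter, which leaves 10. The pituitary held 9 called members, all higher (26.8% of all probe sets), and 33 of its 34 members had a positive difference, with a median of 0.68 beside 0.10 over all. Rpl7 (97697_at) and Rpl19 (161961_at) passed the filter through pituitary alone and had to read high there; without them 7 of 32 were called, 31 of 32 were positive and the median was 0.64. Rps13, by probe set 93027_r_at, had 542 and 391 in 129 pituitary and 606 and 447 in B6 pituitary, against 21.0 to 167 (median 83.0) on 94 other neural arrays. The groups did not overlap, and the difference was 2.69 ± 0.19 (adjusted p = 9.05e-22).

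Rplp0, the scaffold of the ribosome's stalk, had 4795 and 4862 in 129 pituitary and 4859 and 4900 in B6, against 1298 to 4692 (median 1914) in other neural arrays, a rise of 1.35 ± 0.07 (adjusted p = 9.73e-29). Rps4x, with 4234, 4159, 4224 and 4403 in pituitary, against 1293 to 2536 (median 2032), rose by 1.08 ± 0.06, and Rpl10a (161327_f_at), with 1037, 963, 852 and 844, against 218 to 620 (median 379), rose by 1.27 ± 0.09. These 3 genes had no overlap between pituitary and the other neural arrays. Rpl32 rose by 1.22 ± 0.15 and Rpl38 (99627_r_at) by 1.21 ± 0.24 (adjusted p from 6.33e-27 for Rps4x to 5.53e-06 for Rpl38). Of the pair that passed through pituitary alone, Rpl19 (161961_at) read 37.9 to 94.3 there, against 4.09 to 53.4 elsewhere (a difference of 1.34), and Rpl7 (97697_at) read 64.9 to 106 there, against 4.47 to 73.7 (2.03). The other Rpl7 probe set, 97695_s_at, had 0.94 ± 0.08, which did not reach 1. Rps27l, a paralogue of Rps27 known as a target of p53, rose by 1.39 ± 0.26, and Rps27 had 0.37 ± 0.08.

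The retina had 5 called members, all higher (26.6% of all probe sets), and its 4 arrays were all B6. Rpl38, a large-subunit protein needed for normal mouse skeletal patterning, had 173, 137, 156 and 179 by 99627_r_at, against -2.20 to 148 (median 42.1) in other neural arrays, a rise of 1.95 ± 0.24 (adjusted p = 4.5e-11). Its probe set 99626_i_at gave 1.00 ± 0.26, which fell under 1 in 20 fits that left out 1 array, among them those without a bed nucleus array of B6. Rps27l rose by 1.51 ± 0.26, and Rpl32 by 1.41 ± 0.15. Rpl39 read 39.7 to 78.8 in retina, against 7.97 to 59.6 in other neural arrays; it passed the filter through retina alone, so its called difference of 1.15 is given as a description. Rpl32 had 247, 189, 173 and 201 in retina, against 22.3 to 228 (median 67.9) in other neural arrays, so 1 retina array lay above all the others.

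**Figure D4:**
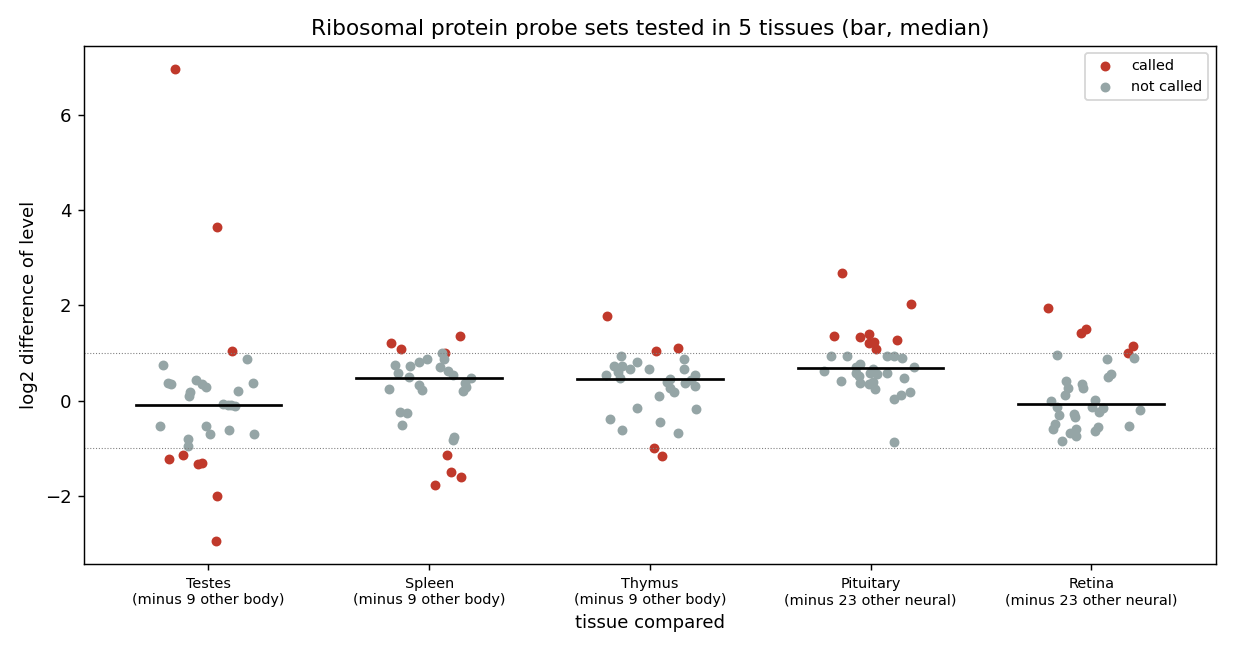
Log2 difference of level of the tested member probe sets in testes, spleen, thymus, pituitary and retina, each against the other tissues of its system; red points were called and bars are medians. In pituitary nearly all points lie above 0 (median 0.68), and in testes they spread from -2.95 to 6.95.

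In the other neural tissues 0 to 2 members were called: 2 of 34 in choroid plexus (34.2% of all probe sets), bed nucleus of stria terminalis (3.74%) and hypothalamus (3.55%), and 1 in motor cortex (5.33%), periaqueductal grey (4.01%), dentate gyrus (4.35%), amygdala (2.58%), striatum (5.4%), superior colliculi (2.88%) and hippocampus (3.34%). Choroid plexus had Rps4l lower by -2.08 ± 0.15 (adjusted p = 2.1e-22), with 33.98 and 24.3 in 129 and 42.4 and 46.1 in B6, against 24.1 to 317 (median 165) elsewhere, and Rpl32 lower by -1.46 ± 0.15. Rps4l was lower in motor cortex by -1.57 ± 0.16 (adjusted p = 1.33e-13), where the DBA arrays had 24.1 and 24.6 and the B6 arrays 82.9 and 63.9. Rpl32 rose in bed nucleus of stria terminalis by 1.09 ± 0.15, and in hypothalamus by 1.03 ± 0.15, which was 0.94 without 129 hypothalamus replicate 2. The third Rps28 probe set, 98086_r_at, was lower in 4 neural tissues, by -1.52 in bed nucleus, -1.12 in hypothalamus, -1.09 in periaqueductal grey and -1.03 in dentate gyrus, and Rps28 by 100758_at gave -0.24, 0.12, 0.07 and 0.39 there. The call in dentate gyrus was not made under 3 alternatives or without 129 dentate gyrus replicate 1, and that in periaqueductal grey not without B6 replicate 2. Rps27l was lower in amygdala (-1.89 ± 0.26) and striatum (-1.15 ± 0.26), neither called with a floor at the 40th percentile. Rpl38 was lower in superior colliculi by -1.36 ± 0.24 (99627_r_at), where the other probe set, 99626_i_at, gave 0.17. That other probe set passed the filter through hippocampus alone, where it had 42.1, 70.4 and 33.95 and its called difference of 1.20 is a description.

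Subtracting the common level of each array asks which members break from the others, here at 1.5-fold and an adjusted p of 0.05. By construction this centres the members near 0 and moves all other probe sets. In pituitary the median over all probe sets became -0.60, beside -0.02 over members, and in spleen -0.57, beside 0.09. The shares of all probe sets on this scale include that shift, so a member count below them is not a result about the members. On this scale 17 of 31 members were called in at least 1 body tissue (97.1% of all probe sets) and 21 of 34 in at least 1 neural tissue (95.1%), counts that include the 5 probe sets that passed the filter through 1 tissue alone. Retina held 13 (52%), of which 4 were lower: Rps19 by -0.80 ± 0.06, Rpl19 (97483_at) by -0.69 ± 0.08, Rpl6 by -0.64 ± 0.06 and Rps10 by -0.59 ± 0.07. Rps19 had 762, 749, 938 and 864 in retina, against 899 to 2418 (median 1462) in other neural arrays. Rpl41, which encodes the smallest ribosomal protein, was higher in choroid plexus by 0.74 ± 0.07 (adjusted p = 5.2e-17), with 12775, 13697, 14604 and 13980 there, against 4113 to 12479 (median 7004), with no overlap. Rps10 is near the threshold and was not called in 7 alternatives, and Rpl41 was not called with quantile normalization. Choroid plexus had 9 called members (59.4%), 4 of them higher: Rpl41, Rps28 (98086_r_at, 0.62 ± 0.20), Rpl13a (0.60 ± 0.09) and Rplp0 (0.59 ± 0.06).

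On this scale a few dimmer members departed from the others in several tissues. Rpl22 was higher in dentate gyrus by 0.87 ± 0.14 (16% of all probe sets called), with 180 and 139 in 129 and 261 and 190 in B6, against 47.5 to 194 (median 101), and in olfactory bulbs by 0.67 ± 0.14 (16.1%). It was lower in perirhinal cortex by -0.72 ± 0.16 (17.6%), which was not called without 129 perirhinal cortex replicate 1. In the body Rpl22 was higher in white adipose tissue (1.26 ± 0.18, 39.5%), adrenal (1.08 ± 0.18, 31.1%) and muscle (1.03 ± 0.18, 49.8%). The summed intensity of the 6 skeletal muscle genes was 155 to 1143 in white adipose tissue, 105 to 4782 in adrenal and 235 to 11042 in brown adipose tissue, against 37151 to 53881 in muscle. The adrenal array with 4782 was that of 129, which had the lowest Rpl22 of the adrenal arrays (98.95, the others 118 to 181), and without it the difference was 1.15. In white adipose tissue the AJ array had both the lowest muscle sum (155) and the lowest Rpl22 (99.1, the others 118 to 195). Brown adipose tissue had Rpl22 at 29.6 to 59.7. The part of muscle in the white adipose difference was not tested. Rpl13a was higher in adrenal (0.92 ± 0.13) and lower in muscle, the reverse of what Rpl22 showed in muscle.

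Among neural tissues Rps4l was higher in periaqueductal grey (0.78 ± 0.14, 13.7%), pons (0.77 ± 0.14, 15.7%), medulla (0.73 ± 0.14, 14.3%) and amygdala (0.69 ± 0.14, 11.9%), and lower in olfactory bulbs (-0.90 ± 0.14, 16.1%) and cortex (-0.70 ± 0.14, 14.3%). Pons had Rps4l at 227 and 181 in 129 and 284 and 230 in B6, while olfactory bulbs had 69.8 and 62.8 in 129 and 78.9 and 89.3 in B6, with no overlap. In pituitary 7 of 34 members were called (60%), with Rps13 highest at 1.99 ± 0.20 and Rps28 (98086_r_at) lowest at -1.58 ± 0.20. In spleen 14 of 31 were called (65.2%), 5 of them higher: Rpl13a, Rps19, Rps4x, Rpl10a and Rps3, by 0.97, 0.82, 0.70, 0.61 and 0.60. The mean set against spleen again includes testes, where Rpl13a, Rps4x, Rpl10a and Rps3 were lower.

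Neural against body tissue was tested on the 34 tissue means. Of 36 members 1 was called, beside 27.2% of all 9807 probe sets: Rplp0 had 1298, 1921 and 4900 as lowest, median and highest on 98 neural arrays, against 3038, 5196 and 8196 on 50 body arrays, a difference of -1.32 ± 0.14 (adjusted p = 2.08e-09). The pituitary arrays lie within the body range, and so does the highest of the other neural arrays. The median over members was -0.24, beside -0.03 over all probe sets.

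Strains were compared with B6 at an adjusted p of 0.05 and 1.5-fold. In body tissues 3 of 31 members were called for at least 1 strain (10.8% of all probe sets). They were all called for AJ minus B6 (7.81%), and limma called 0 for 129 (3.58%), C3H (1.68%) and DBA (1.92%), with 8, 7 and 7 members under an unadjusted p of 0.05. Rps4l had 11.8, 63.0 and 841 as lowest, median and highest on 10 AJ arrays, against 28.5, 169 and 836 on 10 B6 arrays, a difference of -1.09 ± 0.20 (adjusted p = 0.000373), and AJ was lower than B6 in 8 of 10 tissues. The other called members were Rpl32, by -0.85 ± 0.24, and Rps29 (162335_at), by -0.74 ± 0.20 (adjusted p = 0.0139 and 0.0114). The Rps29 difference was -0.03 with a floor at the 40th percentile, and Rpl32 was not called with the Gapdh ratio in the fit. In liver, with 1 array per strain, Rpl32 minus B6 was -2.03 in AJ and -2.05, -2.09 and -1.70 in 129, C3H and DBA. Rps29 (162335_at) minus B6 was -1.78 in liver in each of these strains, since all of those arrays were set to the floor. For Rps29 this is only a bound that rests on the 1 B6 liver array. In both genes the liver part is not particular to AJ. Rpl32 was lower than B6 in 9 of 10 tissues in AJ, and in 6, 7 and 6 in 129, C3H and DBA. Except in spleen, adrenal and white adipose tissue, B6 body titles carry a code series that no AJ, C3H or DBA title carries. What the series stands for is not labelled, and there it cannot be told apart from strain. AJ minus B6 of Rpl32 was -2.03 to -0.18 with this series, and 0.31, -0.48 and -0.02 in spleen, adrenal and white adipose tissue. Rps4l was -1.82 to 0.77, and -2.52, -1.46 and -1.28, in the same order.

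In neural tissues 2 of 34 members were called for at least 1 strain (5.32% of all probe sets), both for DBA minus B6 (3.93%), and limma called 0 for 129 minus B6 (2.33%), with 7 members under an unadjusted p of 0.05. Rps4l had 24.1, 63.4 and 168 on 8 DBA arrays, against 42.4, 192 and 317 on 47 B6 arrays, and the difference was -1.08 ± 0.14 (adjusted p = 1.45e-09). In the 3 tissues with both strains it was -1.31 (CA1), -1.63 (CA3) and -1.58 (motor cortex), but in entorhinal cortex, which has no B6 array, DBA had 114 and 168 beside 157 and 135 in 129. The 129 mean was lower than the B6 mean in 20 of 20 neural tissues with both, by -0.58 ± 0.06 (adjusted p = 3.35e-12), under the 1.5-fold threshold. Rpl38 (99626_i_at) was higher in DBA by 0.81 ± 0.23 (adjusted p = 0.0105), and the difference was 0.67, not called, without CA1 DBA replicate 1.

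Whether 129 minus B6 differs between neural and body tissues was tested by an interaction (16.6% of 9679 probe sets at an adjusted p of 0.05), which 8 of 34 members passed. Rps7 had a 129 minus B6 difference of 0.03 in neural tissue and 0.32 in body tissue, an interaction of -0.29 ± 0.07 (adjusted p = 0.00109). Rps3 had an interaction of -0.26 ± 0.06, Rps19 of 0.25 ± 0.07, Rps10 of 0.25 ± 0.08, Rpl10a (161327_f_at) of 0.31 ± 0.10 and Rps28 (98086_r_at) of -0.63 ± 0.21 (adjusted p from 0.00143 to 0.0289). The other probe sets of Rpl10a and Rps28 did not pass this interaction. Rpl10a by 100711_at had 0.13 (adjusted p = 0.271), and Rps28 had -0.13 by both 100758_at and 98085_f_at (adjusted p = 0.330 and 0.180). Rpl7a (-0.18 ± 0.07) and Rpl6 (-0.18 ± 0.07) passed narrowly, at adjusted p = 0.0477 and 0.0498. With the animal or pool code as a replicate block, 4 of the 8 passed: Rps7, Rps3, Rps19 and Rpl10a by 161327_f_at (adjusted p from 0.00491 to 0.0332). Rps10, Rpl7a, Rps28 by 98086_r_at and Rpl6 did not (0.0568 to 0.0928). Rpl7a and Rpl6 were not called in 4 or more alternatives each. The differences are of at most 1.54-fold.

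Genes that work with the ribosome were counted on the same scale as the tissue levels. Of all probe sets, 16.3% were called higher and 19.8% lower in spleen, 15.9% and 16% in thymus, 20% and 25.1% in testes, and 14.3% and 12.5% in pituitary. Of 24 tested genes of ribosome biogenesis, 6 rose and 0 fell in spleen (median 0.66, all probe sets -0.17) and 8 rose and 0 fell in thymus (median 0.41, all -0.06). Myc, a transcription factor that drives growth, rose by 2.26 in spleen and 2.65 in thymus, and the nucleolar proteins Fbl (1.30 and 1.34), which methylates ribosomal RNA, and Ncl (1.06 and 1.22) rose in both. In testes 6 of these rose, among them the box C/D particle protein Nop58 (1.43), and 3 fell, among them Myc (-1.84). In pituitary 3 of 23 rose, Gnl3, Nop58 and Npm1, by 1.16, 1.08 and 1.02, and 1 fell, Nhp2 (-1.10). Of 3 tested ribosomal proteins outside the symbol rule, Rpsa rose by 1.34 in spleen and 1.15 in thymus and fell by 1.15 in testes. Of 12 tested elongation factors and other mRNAs with a 5′ pyrimidine tract, 2 rose and 0 fell in spleen (Nap1l1 by 1.66 and Pabpc1 by 1.19), 2 rose and 0 fell in thymus, and in testes Pabpc1 (1.63) and Eef1d (1.62) rose and Eif4b (-1.53) fell. Eef1a1, the main elongation factor of growing cells, had 0.28, 0.22 and 0.05 in spleen, thymus and testes. Of 58 tested mitochondrial ribosomal proteins, 0 rose and 29 fell in spleen (median -0.98), 0 rose and 6 fell in thymus, and 5 rose and 11 fell in testes. The share that fell was 50% in spleen, above that of all probe sets, but 10.3% in thymus and 19% in testes, below it. Of 36 translation initiation factors, 4 rose and 1 fell in spleen, 2 rose and 1 fell in thymus, 6 rose and 9 fell in testes, and 3 rose and 0 fell in pituitary. The share that fell in testes (25%) was the same as that of all probe sets (25.1%) but for rounding. The other shares were below those of all probe sets in the same direction.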

How the data were processed

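Biotin-labelled RNA of 34 mouse tissues was hybridized to one-colour Affymetrix arrays. The deposited table holds 1 linear intensity for each probe set and array, 5.99% of them below 0, and the sources used here name neither the software nor the scaling that the authors applied; the 75th percentile ran from 165 to 184 over the arrays. Every value under 10.4, the 20th percentile, was set to 10.4 before log2 was taken. A probe set was tested where its strain-adjusted mean was above 5.73 in at least 1 tissue of the fit. The fits used limma 3.58.1 (R 4.3.3, intensity-dependent prior variance) on all probe sets, and Benjamini-Hochberg adjustment was made within a contrast. Symbols came from the platform's annotation, where 10833 probe sets had 1 symbol, 396 several and 1193 none; promoters came from RefSeq. The number of arrays limits the precision. The fits were tested on simulated data only for changes placed in brighter probe sets. The simulated errors were independent between arrays, and no floor was set on them. That test does not cover members near the floor or arrays that share animals.

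The members, lists and tests were chosen with earlier results of these data known. The rule for named members takes up to 4 in each direction per tissue with the largest difference among those called, up to 10 per strain contrast, those with the widest and narrowest spans, paralogue pairs, and members whose probe sets disagree by over 1. Members with the highest and lowest means were to be named too but were not ranked, since levels of different probe sets are not compared, and some members called against the common level are given in counts only. The alternatives were other floors, quantile normalization, no filter, 1 probe set a gene, a mean as common level, a Gapdh covariate, the identical columns kept, the codes in the titles as a random block, and each array or tissue left out. Leaving out the r and i probe sets was added after the data were seen.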

Additional observations from a re-analysis of the deposited data

Results flagged for a closer look

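Within tissues of 4 to 10 arrays, the gap of the highest or lowest array to its neighbour was set against the range (Dixon's 95% critical value), over 32 tissues for the common level and 51 member and tissue pairs. Chance flags about 1 in 20 such groups, and 3 of 32 and 3 of 51 were flagged. For the common level these were 129 hypothalamus replicate 1 (-0.0820, the others 0.03 to 0.03), 129 olfactory bulbs replicate 2 (-0.0573, the others -0.18 to -0.16) and AJ thymus (0.16, the others 0.54 to 0.62). For members, Rps4l was flagged in AJ brown adipose tissue (98.1, the others 184 to 223). Rps28 (98086_r_at) was flagged in 129 hypothalamus replicate 2 (26.6, the others 35.9 to 37.5). Rpl39l was flagged in B6 liver (21.8, the others -1.16 to 10.3). Members were compared on log2 values after the floor was set, and the other liver arrays of Rpl39l all lay below the floor. They therefore tied, and any single array above the floor would be flagged, so the Rpl39l flag decides nothing.

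By the test of the interaction, neural minus body, 8 members passed for a difference of 129 from B6 that was not the same in neural and body tissues: Rps7 (-0.29), Rps3 (-0.26), Rps19 (0.25), Rpl10a (161327_f_at only, 0.31), Rps28 (98086_r_at only, -0.63), Rps10 (0.25), Rpl7a (-0.18) and Rpl6 (-0.18). With the animal or pool code as a replicate block Rps7, Rps3, Rps19 and Rpl10a passed and the other 4 did not, and 5 passed without the 129 or the B6 liver array. Of the 20 neural and 10 body tissues with both strains, Rps19 was lower in 129 in 11 of the neural and 10 of the body tissues. The other members were less uniform over the 10 body tissues. Rpl10a (161327_f_at) and Rps10 were lower in 129 in 9 and Rps7 was higher in 9. Rps3 and Rps28 (98086_r_at) were higher in 8, Rpl7a in 7 and Rpl6 in 6. Rps28 (98086_r_at) ran from -1.21 to 1.98 over these tissues.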

How the results depend on the processing

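Of 235 called values of members by contrast, 121 were called in every alternative that gave them a value and with each array or tissue of their comparison left out, 95 were lost under at least 1 alternative, 73 with at least 1 array or tissue left out, and 0 changed sign. Alternatives gave different numbers of these values: all 235 with the floor at the 10th percentile, no filter or the Gapdh covariate, 234 with the replicate block, 226 with the floor at the 40th percentile, 219 with quantile normalization, 171 with 1 probe set a gene, 161 with the mean as common level, 126 without the r and i probe sets and 121 with the identical columns kept. Of the counts, members called in neural tissues (13) were 8 with 1 probe set a gene and 7 without the r and i probe sets; those called against the common level there (21) were 13 and 12, and 33 with no filter on dim probe sets. Strain calls in neural tissues (2) were 1 with the floor at the 40th percentile, with quantile normalization, with the identical columns kept, with 1 probe set a gene and without the r and i probe sets, and strain calls in body tissues (3) were 5 with no filter. The interaction (8) was 5 with 1 probe set a gene and 4 with the animal or pool code as a replicate block, whose estimated correlation was 0.157 in neural and 0.0396 in body tissues; no other count moved by over 1.5 times under the replicate block. Leaving out 1 array gave 13 to 15 members in body tissues, 12 to 14 in neural tissues, 16 to 18 and 19 to 22 against the common level, 2 to 5 and 1 to 3 for strains in body and neural tissues, and 5 to 11 for the interaction. The strain count in body tissues was 5 without B6 thymus, that in neural tissues 1 without B6 hippocampus replicate 1, and the interaction 5 without the 129 or the B6 liver array. Leaving out 1 tissue gave 1 to 2 members for neural minus body, with 2 only without testes. The causes were not tested. Dim probe sets near the floor limit what these arrays show.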
